A study of Rattus norvegicus with 24 samples.

Results

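The lungs described here are those of rats exposed to whole-cigarette smoke condensate (WCSC) at 20 mg/mL and sampled at 6 days, set against control lungs of the same day. They were chosen by their labels: 3 exposed and 3 control libraries, which make 6 of the 24 libraries of the series, and all genes were included. The series as a whole holds a control and 5, 10 and 20 mg/mL of WCSC at 6 and at 12 days, with 3 libraries in each of 8 groups. All animals carry the genotype label WT, and lung tissue was profiled by sequencing of Lexogen QuantSeq libraries, a kit that counts transcripts near their polyadenylated ends. The sources used here do not give the strain, sex or age of the rats, the route of exposure or what the controls received. Nor do the labels say that the replicates were separate animals, so p-values measure the spread between libraries, which may be technical.

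A smoke condensate is the particulate and condensable part of cigarette smoke collected as a liquid, and it carries polycyclic aromatic hydrocarbons, aldehydes, metals and nicotine. In the lung such compounds meet the airway epithelium and the alveolar macrophages first. Known responses to them include detoxification through the aryl hydrocarbon receptor, the NRF2 antioxidant programme, NF-kappaB signalling and recruitment of macrophages. Stress and glucocorticoid hormones add a further layer, because the glucocorticoid receptor induces genes that hold inflammation back, among them the NF-kappaB inhibitor Nfkbia and the phosphatase Dusp1.

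The 6 libraries held 5499870 to 9103834 reads assigned to the genes used. Pairs of libraries correlated at 0.923 to 0.941 within the exposed group, 0.938 to 0.971 within the controls and 0.929 to 0.952 between groups, in log2 CPM (counts scaled to library size). Lung identity was clear in all 6. The surfactant gene Sftpc stood at 11344, 14251 and 8706 CPM in exposed replicates 1, 2 and 3 and at 11077, 8915 and 8019 CPM in control replicates 1, 2 and 3, and the club cell gene Scgb1a1 at 11231, 3104 and 7069.6 against 9062, 12979 and 16979 CPM. Exposed replicate 3 stood apart in tissue content. Its mean log2(CPM + 1) over heart muscle genes was the last of 1.24, 1.10 and 3.66 for the exposed libraries, against 1.17, 1.61 and 1.82 in the controls. The cardiac myosin gene Myh6 had 208 reads in it and 0 in the other 5 libraries, and Csrp3, a muscle LIM protein, 30 reads and 0. For the secretory (club and goblet) cells of the airway the same means were 6.42, 3.74 and 7.25 in exposed and 4.97, 5.28 and 5.76 in control libraries, and for ciliated cells 4.72, 2.47 and 5.35 and 3.94, 4.55 and 4.69. By these means exposed replicate 2 was the lowest of the 6 in both airway lists and replicate 3 the highest. The exposed group was thus more varied than the controls in its levels of airway genes. Red blood cell genes went the other way, with means of 8.10, 8.69 and 6.22 in exposed and 8.52, 8.01 and 7.28 in control libraries. Ribosomal RNA took 9.55%, 5.68% and 4.43% of reads in the exposed libraries and 3.63%, 4.41% and 6.04% in the controls. In bulk tissue, a difference in the number of cells of a type and one in RNA per cell cannot be told apart.

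**Figure D1:**
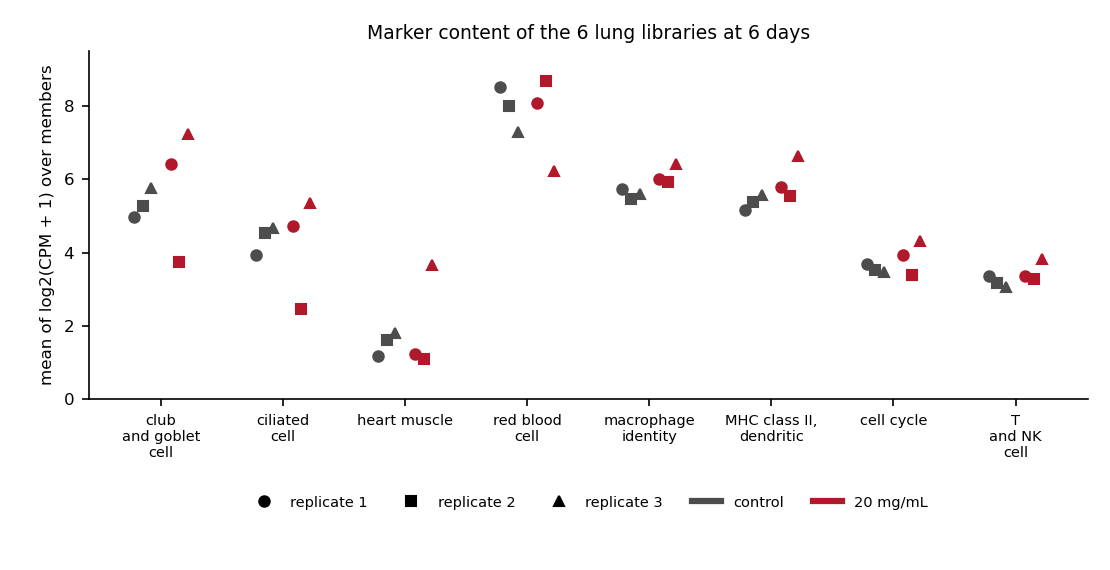
Mean log2(CPM + 1) over the genes of 8 marker lists (horizontal axis) in each of the 3 control (grey) and 3 exposed (red) libraries, with symbols for replicate numbers. Exposed replicate 3 (triangle) is highest for club and goblet cells (7.25), ciliated cells (5.35) and heart muscle (3.66) and lowest for red blood cells (6.22), and exposed replicate 2 (square) is lowest for both airway lists (3.74 and 2.47).

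No gene passed the test between exposed and control lungs. With edgeR's quasi-likelihood test and Benjamini-Hochberg adjustment, 0 of 11421 genes (0%) had an adjusted p at or under 0.05, and the smallest was 0.0524, for Cebpd. At an unadjusted p under 0.05 there were 237 genes higher in exposed lungs (2.08% of those tested) and 227 lower (1.99%). Together they make 464 genes (4.06%), and these are called nominally higher or lower below. If no gene differed, a share of about 0.05 would be expected under that threshold, so the 464 genes are no surplus over it. The share of higher genes among them was 51.1%, and it became 61.3% (291 higher, 184 lower) under upper-quartile scaling, 61.7% (192 and 119) in a fit of the 12 libraries of day 6, and 37.8% (238 and 391) without exposed replicate 3. All 3 exposed libraries lay above all 3 controls for 466 genes (4.08%) and below them for 533 (4.67%). With 3 libraries in each group such separation also arises where there is no difference, so for single genes it is a description. Over all genes 49.6% had a log2 fold change above 0. The counts of the gene lists below are to be read against these shares over all genes. Of the other fits to these libraries, upper-quartile scaling, the smaller fits, other handling of repeated symbols and a fit without ribosomal RNA and globin genes called 0 genes, as did each fit that left out 1 library. The rest called 1 to 3. The 3 of DESeq2 were Cebpd, Hist1h1d and Epha4, and the 2 of weighted limma voom were Cebpd and Zbtb16. Genes described below were therefore lower or higher by the values given, without having passed the main test, and a value in brackets after CPM values is the log2 fold change of exposed over control. Genes named for a small p or a large fold were drawn only from those whose groups did not overlap. For them the lack of overlap was fixed by that choice.

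**Figure D2:**
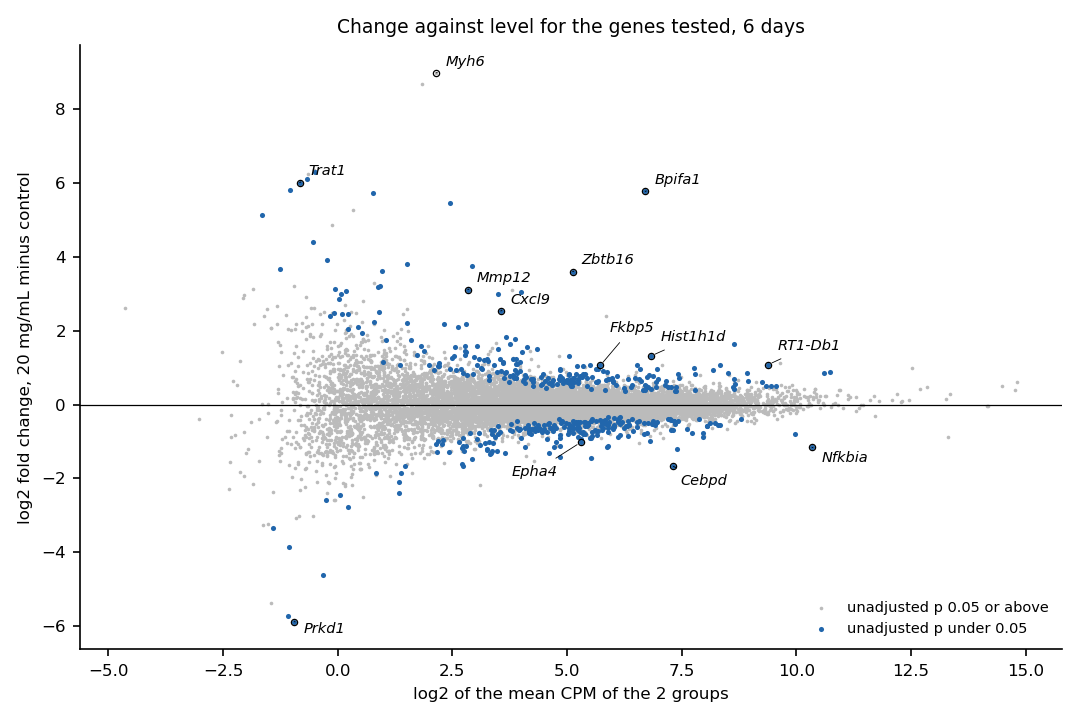
Fitted log2 fold change, exposed minus control (vertical axis), against the log2 of the mean CPM of both groups (horizontal axis) for the genes tested; blue points have an unadjusted p under 0.05, and 1 gene with 0 reads in all 6 libraries is not drawn. Cebpd (-1.68) and Nfkbia (-1.16) lie below the cloud at high levels and Zbtb16 (3.60) far above it, and the fitted values of Myh6, Trat1 and Prkd1 rest on a group with 0 reads and are no bound on a fold.

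Smallest in p was Cebpd, the gene of C/EBP delta, a transcription factor that inflammatory signals and glucocorticoids induce within hours. Its level was 84.5, 59.9 and 84.1 CPM in exposed replicates 1, 2 and 3 and 201, 285 and 243 CPM in controls 1, 2 and 3. Every exposed library was below every control, and the lowest control was more than double the highest exposed library. The log2 fold change was -1.68 (95% interval -2.26 to -1.10), with an adjusted p of 0.0524 in edgeR. Leaving out single libraries gave values from -1.80 to -1.53, and with 2 libraries in an arm the adjusted p was between 0.0657 and 0.540. Of the other C/EBP family members, Cebpa, the factor of alveolar type II cells and myeloid cells, stood at 91.4, 94.6 and 166 against 74.0, 66.8 and 75.0 CPM and was nominally higher (0.71, and 0.37 without exposed replicate 3). Cebpb was at 95.6, 68.2 and 83.8 against 84.6, 95.5 and 91.1 CPM, with overlapping groups and a log2 fold change of -0.13 (95% interval -0.74 to 0.47). Both C/EBP alpha and beta bind the same sites as C/EBP delta, and the 6 members tested thus showed no shared direction.

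Spidr, a scaffold of homologous recombination repair, is the gene next to Cebpd in the RefSeq annotation of GRCr8. It was lower as well, at 19.1, 29.4 and 25.6 CPM in exposed and 50.4, 90.0 and 62.5 CPM in control libraries, and the groups did not overlap. Its log2 fold change was -1.45 (95% interval -2.15 to -0.74). The sources used here do not say whether reads were counted by strand, so reads near the border of the pair cannot be assigned to one of them with certainty.

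Nfkbia encodes I-kappaB alpha, which holds NF-kappaB in the cytoplasm and is itself switched on by NF-kappaB and by glucocorticoids. It stood at 726, 979 and 701 CPM in exposed and 1635, 1755 and 1989.9 CPM in control libraries. The lowest control was well above the highest exposed library, and the log2 fold change was -1.16 (95% interval -1.75 to -0.57). It was the 1 nominally lower gene, with none nominally higher, of the 20 tested among NF-kappaB subunits and feedback genes, a list whose median log2 fold change was -0.010 (-0.18 without exposed replicate 3), against -0.0022 over all genes. Nfkb2, the subunit precursor p100, had the next smallest p of that list, at 25.0, 38.9 and 52.3 against 32.3, 26.3 and 27.2 CPM with overlapping groups (0.44, 95% interval -0.11 to 0.99). The RefSeq promoter of Nfkbia in GRCr8 (chr6:78597023-78597322, minus strand, 250 bases before to 50 after the start) is printed because the gene was lower in every exposed library and is a textbook NF-kappaB target. Capitals mark the match to the NF-kappaB consensus, which lies 31 bases before the start.
Nfkbia promoter: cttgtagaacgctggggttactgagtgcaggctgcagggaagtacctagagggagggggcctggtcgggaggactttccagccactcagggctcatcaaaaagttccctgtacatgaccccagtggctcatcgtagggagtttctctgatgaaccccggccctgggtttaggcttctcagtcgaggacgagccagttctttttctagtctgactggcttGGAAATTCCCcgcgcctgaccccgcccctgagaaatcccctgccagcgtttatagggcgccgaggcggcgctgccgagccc
Both strands were searched, and 4.18% of the 33469 rat promoters of this length hold a match. Such a match describes the letters and says nothing about binding in these lungs.

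Dusp1, the phosphatase that switches off p38 and JNK kinases, was at 87.5, 88.5 and 133 CPM in exposed and 167, 263 and 280.2 CPM in control libraries. The groups did not overlap, and the log2 fold change was -1.20 (95% interval -2.06 to -0.34). Its promoter (chr10:17184603-17184902, plus strand, GRCr8, RefSeq) is printed for its pair of stimulus-response motifs. Capitals mark the full cAMP response element TGACGTCA, 124 bases before the start and present in 1.83% of all promoters, and the E-box CACGTG, 107 bases before it and present in 6.42%. Both were searched on either strand, and CREB-type and clock-type factors are the ones known to bind them.
Dusp1 promoter: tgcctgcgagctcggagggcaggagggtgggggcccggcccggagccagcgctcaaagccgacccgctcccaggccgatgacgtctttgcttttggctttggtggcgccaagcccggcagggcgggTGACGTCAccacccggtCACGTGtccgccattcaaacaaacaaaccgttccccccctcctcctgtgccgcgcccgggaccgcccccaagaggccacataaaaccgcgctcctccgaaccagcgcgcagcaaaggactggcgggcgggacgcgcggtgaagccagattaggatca
The promoters of Cebpd, Csrnp1, Zbtb16, Epha4 and Spidr were not used here.

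Immediate-early genes are transcribed within minutes of a stimulus and include the first transcription factors and their feedback inhibitors. Of 34 tested, 6 were nominally lower and 1 nominally higher, while the list's median log2 fold change was 0.036 (-0.13 to 0.21 without single libraries). Under weighted limma voom that median was -0.25, with 11 of 34 above 0. The lower members were feedback regulators, KLF factors and Csrnp1, and no Fos or Jun gene was among them. Csrnp1, an AXIN1-induced nuclear protein, stood at 13.6, 17.1 and 18.1 CPM in exposed and 36.4, 37.7 and 34.9 CPM in control libraries (-1.15, 95% interval -1.75 to -0.55), and every exposed library was far below every control. Dusp6, the ERK phosphatase, was at 882, 602 and 739 against 1514, 1145 and 1169 CPM (-0.78, 95% interval -1.30 to -0.27), without overlap. Klf4 (271, 200.2 and 164 against 328, 309 and 317 CPM, -0.59) and Klf6 (428, 355 and 371 against 503, 529 and 484 CPM, -0.39) were lower by smaller amounts, again without overlap. Zfp36, the tristetraprolin that shortens the life of cytokine mRNAs, was at 12.4, 13.4 and 23.2 against 14.5, 39.4 and 39.4 CPM (-0.92), and here control replicate 1 lay below exposed replicate 3. Rgs2, a brake on G-protein signalling, went the other way, at 64.2, 61.2 and 39.0 against 16.1, 24.9 and 38.1 CPM (1.05), and its lowest exposed and highest control libraries were almost equal. Klf5, a KLF factor of airway and type II epithelium outside the list, was at 56.4, 69.3 and 70.6 against 130.4, 91.1 and 99.9 CPM (-0.71, 95% interval -1.09 to -0.33).

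**Figure D3:**
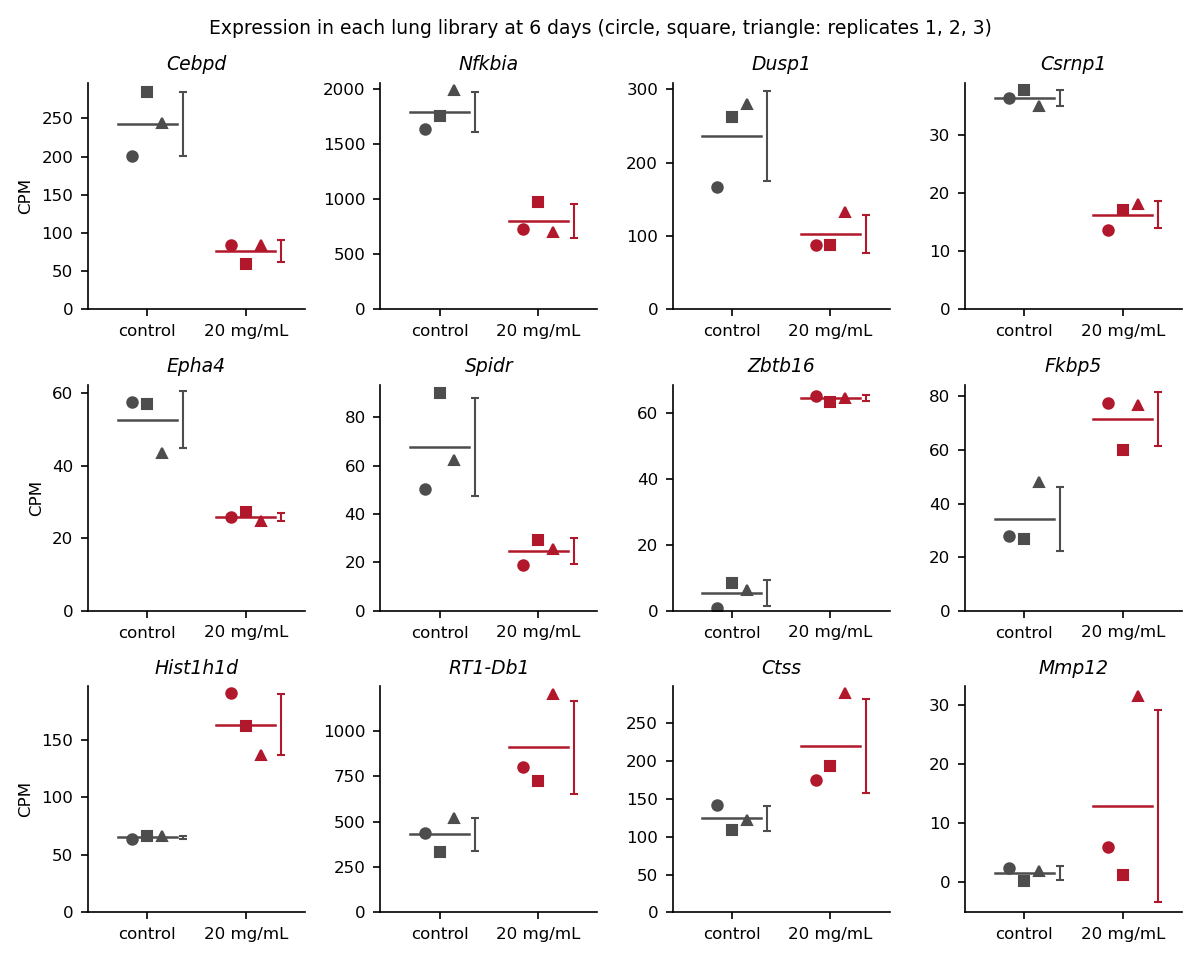
CPM of 12 genes (vertical axes, linear from 0 except for Mmp12, whose error bar reaches below 0) in each control (grey) and exposed (red) library; lines are means and bars the SD of 3 libraries. Cebpd, Nfkbia, Dusp1, Csrnp1, Epha4 and Spidr are lower in every exposed library, Zbtb16, Fkbp5, Hist1h1d, RT1-Db1 and Ctss higher in every one, and Mmp12 is highest in exposed replicate 3 (31.4 CPM).

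Zbtb16 and Fkbp5 are among the classical readouts of glucocorticoid receptor activity, and both were higher. Zbtb16, which encodes the zinc finger factor PLZF, was at 65.2, 63.4 and 64.6 CPM in exposed and 0.893, 8.54 and 6.47 CPM in control libraries. The exposed libraries lay within 2 CPM of each other and the controls were all under 9 CPM, which gave a log2 fold change of 3.60 (95% interval 1.65 to 5.56). Fkbp5, the co-chaperone that lowers the receptor's hormone affinity, was at 77.6, 60.1 and 76.9 against 27.8, 27.0 and 48.1 CPM, a log2 fold change of 1.06 (95% interval 0.26 to 1.86), without overlap. The other nominally higher or lower genes of the 25 tested glucocorticoid-induced genes were all lower. Besides Cebpd, Nfkbia, Dusp1 and Zfp36 these were Ddit4, an mTOR inhibitor, at 34.3, 26.7 and 50.4 against 50.9, 90.5 and 103 CPM (-1.13), and Tsc22d3, the leucine zipper GILZ, at 266, 273 and 244 against 339.9, 396 and 408 CPM (-0.55). The list as a whole had 2 members nominally higher and 6 nominally lower, 14 of 25 with a log2 fold change above 0, and a median of 0.034. Leaving out single libraries gave 1 to 3 nominally higher and 4 to 7 nominally lower members. Its members thus split between those highest in the exposed lungs and those highest in the controls, and its median was close to that of all genes.

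Several of these genes also follow the time of day, which the labels do not give. Of 14 clock genes tested, Per2 was at 12.8, 19.4 and 22.5 against 44.4, 50.4 and 24.5 CPM (-1.12, 95% interval -1.84 to -0.39) and Cry2 at 17.5, 20.3 and 20.7 against 30.5, 35.8 and 29.6 CPM (-0.71, 95% interval -1.28 to -0.15). Both encode repressors of the clock loop, and both were lower in every exposed library than in every control. Nfil3, a repressor that acts in antiphase to the PAR-domain factors, was at 17.7, 20.0 and 21.9 against 14.8, 8.94 and 14.8 CPM (0.63). No other clock gene was nominally higher or lower, and the list's median was -0.14, but 0.11 without exposed replicate 2 and 0.065 without control replicate 2. Whether the groups were sampled at different hours was not tested.

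Epha4, a receptor tyrosine kinase for ephrins, had the second smallest p. It stood at 25.8, 27.2 and 24.8 CPM in exposed and 57.5, 57.1 and 43.6 CPM in control libraries, with all exposed libraries within 3 CPM of each other and the lowest control at 43.6. The log2 fold change was -1.03 (95% interval -1.47 to -0.58). Among the 12 Eph receptors and ephrins tested it was the 1 nominally lower gene, with none nominally higher, and Ephb1 came next at 13.2, 6.52 and 5.61 against 12.2, 17.9 and 16.5 CPM with overlapping groups (-0.90, 95% interval -1.99 to 0.20). Abcc3, an efflux pump for conjugated organic anions, was at 6.70, 10.7 and 13.9 against 24.5, 22.1 and 23.4 CPM (-1.15, 95% interval -1.75 to -0.54). As3mt, the arsenic methyltransferase, was at 22.3, 15.8 and 21.4 against 30.9, 43.6 and 38.0 CPM (-0.92). In both, every exposed library was below every control.

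The other lower genes of smallest p were of varied function, and none of them overlapped between groups, as the rule that named them required. Tox3, an HMG-box factor, was at 77.2, 103 and 59.6 against 129.9, 149 and 129 CPM (-0.77). Satb1, a chromatin organiser of T cells, was at 20.7, 30.8 and 27.4 against 55.2, 44.3 and 46.7 CPM (-0.89), and Cbx7, a Polycomb reader, at 25.6, 27.2 and 28.8 against 33.4, 58.8 and 62.5 CPM (-0.92). The demethylase gene Alkbh4 (-1.11), the sialyltransferase gene St3gal6 (-0.70) and Smtnl2, a smoothelin-like gene (-0.82), complete this group. For Smtnl2 the gap was narrow, with 20.1, 22.0 and 20.7 CPM in exposed and 41.2, 44.6 and 24.8 CPM in control libraries. Prkd1, protein kinase D1, had 0 reads in all 3 exposed libraries and 8, 4 and 11 reads in the controls, too few for a fold to be given. Further lower genes with large fitted folds were also thinly covered. Ntm, a neural adhesion gene, had 1, 8 and 9 reads in exposed and 40, 29 and 27 in control libraries, Sgsm1 0, 0 and 1 and 4, 7 and 23, and Tmem169 3, 3 and 0 and 17, 7 and 15.

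Among higher genes the smallest p belonged to Hist1h1d, a linker histone gene. It was at 190.5, 162 and 137 CPM in exposed and 64.0, 66.0 and 66.0 CPM in control libraries, so that the lowest exposed library had about double the highest control, and the log2 fold change was 1.32 (95% interval 0.72 to 1.92). RefSeq lists this symbol as an older name of more than 1 histone gene, and histone copies are near-identical, so which copy the reads came from is uncertain. Of 14 histone genes tested, 2 were nominally higher and none lower, with a median of 0.19, which was 0.016 without control replicate 3 (8 of 16 above 0) and 0.44 without control replicate 1. Besides Hist1h1d the nominally higher member was Hist1h2an, an H2A gene, at 17.5, 13.0 and 12.6 against 5.23, 9.89 and 5.49 CPM (1.06), and Hist1h1b was at 4.47, 6.76 and 5.36 against 1.02, 2.85 and 2.39 CPM (1.40, 95% interval -0.099 to 2.91). Replication-dependent histone mRNAs mostly lack a poly(A) tail, so a method that starts from poly(A) sees them in part.

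The other higher genes of smallest p were of varied function, and their order here is by what each is known for, with no list or test behind it. Cmc1, a cytochrome oxidase assembly factor, was at 17.9, 21.2 and 31.1 against 8.29, 6.50 and 11.5 CPM (1.42, 95% interval 0.69 to 2.15), and Coa7, another, at 12.8, 15.9 and 14.3 against 5.61, 8.40 and 9.15 CPM (0.89). Tmbim6, the endoplasmic reticulum (ER) protein Bax inhibitor-1, was at 115, 113 and 127 against 79.1, 78.3 and 70.8 CPM (0.64, 95% interval 0.29 to 0.99), with a tight spread in both groups. Lrrc59, a ribosome-binding ER protein, was at 53.0, 61.2 and 71.8 against 46.0, 38.4 and 34.3 CPM (0.65). Nupr1, a stress-induced chromatin protein, was at 108, 159.8 and 112 against 74.2, 56.1 and 65.2 CPM (0.96, 95% interval 0.38 to 1.53). Smpdl3a, a secreted lysosomal phosphodiesterase of macrophages, was at 82.8, 87.9 and 202 against 68.5, 47.3 and 62.2 CPM (1.07), and it was highest in exposed replicate 3. Ninj1, which ruptures the membrane of dying cells, was at 33.7, 38.1 and 38.9 against 23.5, 21.1 and 22.7 CPM (0.72), and Srd5a1, steroid 5-alpha-reductase, at 18.1, 15.3 and 16.8 against 3.44, 8.81 and 10.4 CPM (1.15). Tmem242 (0.78), a factor of ATP synthase assembly, was likewise higher in every exposed library. The list of 26 ER stress genes had a median of 0.18, with 2 members nominally higher, the chaperone gene Calr (845, 905 and 481 against 601, 374 and 474 CPM, 0.62) and Dnajc3 (196, 190.0 and 125 against 143, 118 and 105 CPM, 0.48). Without control replicate 2 that median was 0.077 with 0 nominally higher, and without exposed replicate 2 it was 0.10 with 0. The log2 fold change of Smpdl3a was 0.52 without exposed replicate 3.

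Further higher genes with the largest fitted folds had few reads. Trat1, a T cell receptor adaptor, had 4, 17 and 4 reads in exposed libraries and 0 in every control, Sectm1a 11, 5 and 11 and 0, and the opioid receptor gene Oprm1 12, 6 and 5 and 0. Cym, the chymosin gene, had 31, 24 and 7 against 0, 1 and 0 reads, and Arhgap27, a GTPase regulator, 10, 18 and 5 against 0, 1 and 1. With a control group at or near 0, no fold is given for them.

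MHC class II molecules, which show antigen to helper T cells, were the next group of genes at higher levels. RT1-Db1, a beta chain of the rat class II molecule RT1-D, was at 802, 724 and 1204 CPM in exposed and 436, 334 and 519 CPM in control libraries, and all exposed libraries were above all controls (1.08, 95% interval 0.56 to 1.61). Its partner alpha chain RT1-Da was at 453, 341 and 644 against 373, 287 and 316 CPM, where exposed replicate 2 lay among the controls (0.56, 95% interval 0.079 to 1.04). RT1-DMa, which loads peptides onto class II, was at 58.3, 45.7 and 99.0 against 23.7, 32.0 and 47.7 CPM (0.97), and its partner RT1-DMb at 217, 189 and 312 against 223, 167 and 145 CPM (0.42). Leaving out exposed replicate 3 gave 0.29 for RT1-Da and 0.59 for RT1-DMa. The invariant chain gene Cd74 was at 1192, 1410.2 and 1893 against 966, 1503 and 1065 CPM (0.35, 95% interval -0.17 to 0.86), with overlapping groups. RT1-Ba, the alpha chain of the second class II molecule, showed no separation, at 112, 407 and 413 against 278, 253 and 259 CPM (0.24, 95% interval -0.90 to 1.38), and its sign turned with the left-out library. Reads of the near-identical RT1 genes may be split between copies.

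Of the 11 MHC class II and dendritic cell genes tested, all had a log2 fold change above 0, against 49.6% of all genes. Nominally higher were 5 of the 11, against 2.08% of all genes, and the list's median was 0.56. Without exposed replicate 3 the median was 0.29 and 1 member was nominally higher. Markers of the cross-presenting dendritic cell leaned on that library. Xcr1, a chemokine receptor of these cells, was at 4.87, 0.603 and 19.3 against 1.79, 1.63 and 1.97 CPM, and the growth factor receptor Flt3 at 5.48, 0.724 and 7.78 against 0.638, 1.90 and 1.55 CPM, with exposed replicate 2 below most controls in both. Class II promoters are known to share a Y box, an inverted CCAAT sequence bound by NF-Y. The 98 bases around it (70 before to 20 after the box) are shown for 3 chains. They were chosen because RT1-Db1 and RT1-Da were nominally higher and RT1-Ba was not. The promoters of RT1-DMa and Cd74, searched too, had no match to the letters of the box used here. Capitals mark the Y box CTGATTGG, which 3.5% of all promoters hold. It was searched on both strands and overlaps the CCAAT motif, which 37.5% of them hold. The windows lie at chr20:4560218-4560315 (minus strand), chr20:4515293-4515390 (plus strand) and chr20:4576941-4577038 (plus strand) of GRCr8, from RefSeq, and the boxes at 83, 52 and 46 bases before the start.
RT1-Db1: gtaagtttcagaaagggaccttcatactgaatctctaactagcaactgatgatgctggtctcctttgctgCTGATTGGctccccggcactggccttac
RT1-Da: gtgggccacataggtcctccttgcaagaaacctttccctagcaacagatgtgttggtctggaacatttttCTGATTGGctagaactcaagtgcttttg
RT1-Ba: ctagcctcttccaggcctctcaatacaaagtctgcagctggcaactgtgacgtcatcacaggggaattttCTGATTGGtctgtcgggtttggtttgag
All 3 windows hold the same 8 letters. The RT1-Ba window also holds the full cAMP response element TGACGTCA, 69 bases before the start and left in small letters. The promoters of RT1-Db1 and RT1-Da had no match to that element. Whether any of these letters bear on the levels was not tested.

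Macrophage genes leaned the same way. All 21 macrophage identity genes tested had a log2 fold change above 0, against 49.6% of all genes, with a median of 0.48. Nominally higher were 8 of them, against 2.08% of all genes. The protease gene Ctss, cathepsin S, which degrades the invariant chain, was at 175, 194 and 290.4 against 142, 109 and 122 CPM (0.82, 95% interval 0.29 to 1.34), with no overlap. Cd68 was at 39.8, 41.3 and 115 against 41.1, 24.5 and 35.2 CPM (0.96), and the lipopolysaccharide co-receptor gene Cd14 at 9.75, 9.78 and 13.8 against 2.55, 3.66 and 7.32 CPM (1.30), the latter without overlap. Complement C1q chains, made by macrophages, stood at 29.6, 38.9 and 77.3 against 28.1, 33.5 and 24.6 CPM for C1qa and 82.0, 78.6 and 138 against 52.8, 61.4 and 69.1 CPM for C1qb. The inhibitory Fc receptor gene Fcgr2b (11.0, 8.33 and 70.6 against 13.6, 9.35 and 8.59 CPM) and Siglec1 (3.65, 6.03 and 19.7 against 5.23, 4.20 and 2.25 CPM) were high mainly in exposed replicate 3, and Fcgr2b was not higher without it. Without exposed replicate 3 the log2 fold change of Cd68 was 0.27, and the list's median was 0.32, with 1 nominally higher member, and without control replicate 2 it was 0.50, with 2.

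Genes of lipid-laden, or foamy, macrophages had 7 of 23 members nominally higher, against 2.08% of all genes, and a median of 0.45. The lysosomal cholesterol carrier Npc2 was at 1186, 1644 and 3223 against 1141, 917 and 1264 CPM (0.87, 95% interval 0.20 to 1.53). Gpnmb, a lysosomal glycoprotein, was at 227, 349.7 and 741 against 192, 176 and 263 CPM (1.06), and the lipid receptor gene Trem2 at 9.54, 12.9 and 37.3 against 11.1, 4.47 and 9.85 CPM (1.24). Apoe was at 849, 1513 and 4254 against 1103, 1378 and 1090.0 CPM, highest in exposed replicate 3, and its log2 fold change without that library was -0.011. By contrast the scavenger receptor gene Cd36, at 8.73, 9.17 and 6.89 against 3.06, 2.03 and 4.79 CPM (1.32), was higher in all 3 exposed libraries, and lipoprotein lipase, Lpl, at 67.6, 34.4 and 37.8 against 19.9, 23.0 and 35.9 CPM (0.82), nearly so. Leaving out exposed replicate 3 gave log2 fold changes of 0.35 for Npc2, 0.46 for Gpnmb and 0.41 for Trem2, and without exposed replicate 1 that of Lpl was 0.46. Without exposed replicate 3 the list's median was 0.35, with 2 members nominally higher and 1 nominally lower. Without control replicate 2 there were 2 nominally higher and 0 lower, and without control replicate 1 there were 3 and 0.

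Mmp12, the macrophage elastase known from smoke-exposed lungs, was at 5.89, 1.21 and 31.4 CPM in exposed and 2.42, 0.136 and 1.83 CPM in control libraries. Exposed replicate 2 lay within the controls, and the log2 fold change was 3.12 (95% interval 0.84 to 5.40). It was 1.23 without exposed replicate 3. It belongs to the 29 proteases and antiproteases tested, of which 3 were nominally higher, with a median of 0.34 (0.28 without exposed replicate 3, with 1 nominally higher and 2 nominally lower). The number nominally higher ran from 1 to 8 over the fits without single libraries, with the most without control replicate 1. Ctsd, cathepsin D, was at 838, 1074 and 1093 against 709, 545 and 899 CPM (0.48), and the neutrophil protease inhibitor gene Serpinb1a at 245, 141 and 267 against 149.7, 97.7 and 149 CPM (0.72). Both had overlapping groups. Complement genes had 4 of 20 nominally higher, among them C2 at 93.4, 164 and 185 against 110.3, 66.8 and 83.5 CPM (0.76) and properdin, Cfp, at 34.3, 46.5 and 39.7 against 32.7, 23.4 and 26.7 CPM (0.54). Their median was 0.30. It was 0.17 without exposed replicate 3, with 1 nominally higher and 1 nominally lower, and 0.20 without control replicate 2, with 1 nominally higher.

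Cytokine and chemokine genes had 21 of 25 log2 fold changes above 0, against 49.6% over all genes, and a median of 0.31. Nominally higher were 3 of the 25, against 2.08% of all genes. Cxcl9, an interferon-gamma-induced attractant of T cells, was at 16.4, 1.69 and 42.1 against 5.61, 2.17 and 2.53 CPM, and the monocyte attractant Ccl2 at 8.53, 0.483 and 20.8 against 2.04, 1.76 and 3.10 CPM. In both, exposed replicates 1 and 3 were above all controls and replicate 2 below all of them. Il1b was at 57.3, 63.6 and 55.3 against 54.7, 26.4 and 23.9 CPM (0.74, 95% interval 0.042 to 1.45), above every control in all 3 exposed libraries, though by less than 1 CPM over control replicate 1. Its antagonist Il1rn stood at 59.3, 62.4 and 71.1 against 52.7, 29.7 and 58.7 CPM (0.45), the neutrophil attractant Cxcl1 at 16.6, 3.74 and 9.06 against 4.46, 7.05 and 11.1 CPM (0.36, 95% interval -1.32 to 2.04) and Tnf at 3.05, 1.69 and 1.28 against 2.68, 0.949 and 1.13 CPM (0.31, 95% interval -1.58 to 2.20). Cxcl1 and Tnf overlapped between the groups, and Il1rn did not, by less than 1 CPM. Without control replicate 1 the log2 fold change of Il1b was 1.22. The list had 1 member nominally higher without control replicate 2. Without exposed replicate 3 none of the list's genes was nominally higher and 1 was nominally lower.

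Neutrophil genes had a median of 0.55 and 0 of 11 nominally higher or lower (2 nominally higher without control replicate 1), with Retnlg at 3.05, 7.97 and 4.08 against 2.93, 2.71 and 1.27 CPM. T and NK cell genes had a median of 0.38, and -0.023 without exposed replicate 3. Cd7 (8.32, 13.0 and 16.7 against 5.48, 6.37 and 4.50 CPM, 1.22) separated the groups, while Cd3d (13.4, 19.3 and 32.5 against 16.5, 6.78 and 6.19 CPM) and the T cell chemokine Ccl5 (115, 106 and 135 against 119, 27.1 and 72.5 CPM) did not. The plasma cell gene Mzb1 was at 11.6, 9.78 and 40.3 against 2.55, 6.50 and 10.8 CPM, and Mcpt1, a mast cell protease gene, had 0, 4 and 121 reads against 0, 3 and 5, nearly all in exposed replicate 3. Interferon-stimulated genes had a median of -0.11, with Ifi47 nominally higher (0.66) and Ifi44 nominally lower (-0.60). Without control replicate 1 that median was 0.079 and the log2 fold change of Ifi44 -0.30.

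A pair of immune cell genes outside these lists were among those of smallest p. Tmem176b, a cation channel of dendritic cells and macrophages, was at 251, 276 and 322 against 127, 154 and 201 CPM (0.82, 95% interval 0.33 to 1.30), and Myo1f, the myosin of myeloid cells, at 26.6, 54.2 and 69.3 against 24.6, 23.2 and 25.6 CPM (1.04, 95% interval 0.40 to 1.67). Neither overlapped between groups, as the rule that named them required, and the nearest libraries of Myo1f were almost equal.

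Cell cycle genes had 29 of 39 log2 fold changes above 0, against 49.6% over all genes, and a median of 0.49. Of the 39, 9 were nominally higher and 1 lower, against 2.08% and 1.99% of all genes. Kif20a, a mitotic kinesin, was at 17.3, 16.7 and 27.2 against 10.7, 8.40 and 9.43 CPM (1.10, 95% interval 0.33 to 1.87) and Prc1, which bundles the spindle midzone, at 38.2, 27.8 and 60.4 against 28.6, 22.0 and 21.8 CPM (0.80), and for Kif20a every exposed library exceeded every control. Cyclin B1, Ccnb1, was at 19.1, 7.97 and 23.1 against 8.16, 5.96 and 3.52 CPM, the kinetochore gene Cenpf at 74.3, 26.2 and 83.2 against 29.1, 27.0 and 30.7 CPM and topoisomerase Top2a at 44.3, 17.5 and 52.7 against 20.7, 16.0 and 21.8 CPM. In these 3, exposed replicate 2 lay within or below the controls. The proliferation marker Mki67 was at 41.4, 25.3 and 44.5 against 30.0, 23.4 and 17.6 CPM (0.65) and the checkpoint kinase gene Bub1b at 6.29, 2.41 and 7.53 against 2.30, 0.949 and 2.67 CPM (1.44). Other members of the list, chosen after their values were seen, had log2 fold changes under 0. The replication clamp gene Pcna was at 66.4, 50.4 and 45.0 against 65.8, 58.1 and 51.4 CPM (-0.12, 95% interval -0.63 to 0.39), the helicase gene Mcm7 at 39.0, 42.4 and 44.0 against 56.5, 53.1 and 42.4 CPM (-0.28, 95% interval -0.69 to 0.14), and the S-phase factor E2f1 was nominally lower, at 16.0, 12.9 and 20.7 against 39.3, 22.5 and 16.2 CPM (-0.65, and -0.23 without control replicate 1). The value of Prc1 was 0.45 without exposed replicate 3. Without exposed replicate 3 the list's median was 0.13, with 1 member nominally higher and 1 nominally lower. Without exposed replicate 2 the median was 0.67, with 14 nominally higher and 0 lower. Without control replicate 2 it was 0.32, with 4 nominally higher and 1 lower. The part of tissue content in these immune and cell cycle values was not tested.

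**Figure D4:**
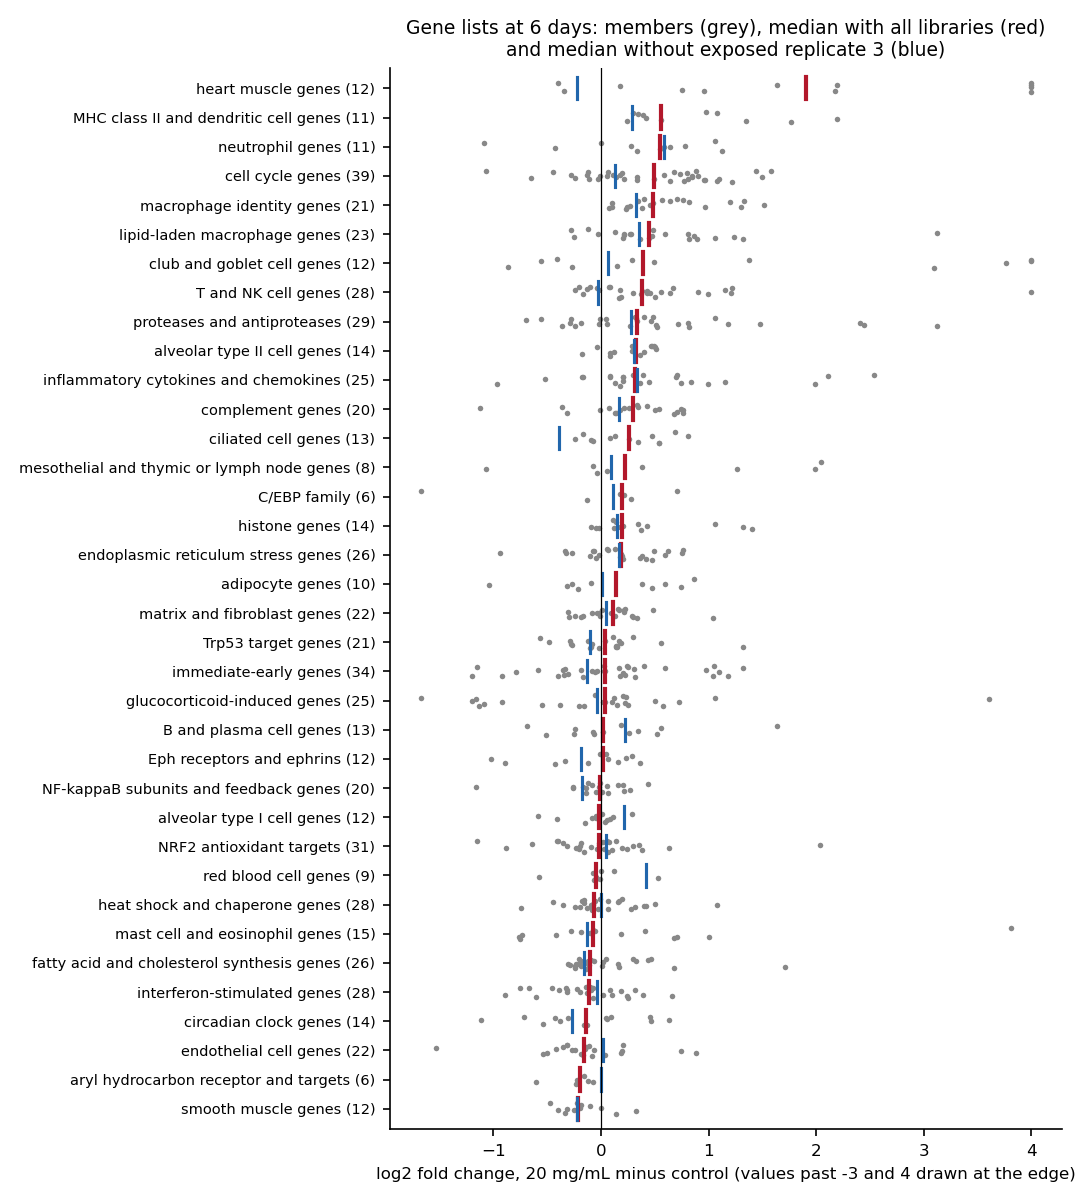
Log2 fold change, exposed minus control, of the tested members (grey points) of each list with at least 6 of them (number in brackets), with the median over all libraries in red and the median without exposed replicate 3 in blue. The medians of MHC class II (0.56), cell cycle (0.49), macrophage identity (0.48) and T and NK cell genes (0.38) move to 0.29, 0.13, 0.32 and -0.023 without that library, and the heart muscle median moves from 1.90 to -0.22.

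Alveolar type II cells make surfactant. Their 14 genes tested had a median of 0.33 (0.30 without exposed replicate 3), with 12 of 14 above 0 and 1 nominally higher. That was Ctsh, cathepsin H, which processes surfactant proteins, at 701, 956 and 999 against 575, 672 and 612 CPM (0.51, 95% interval 0.071 to 0.96), without overlap. Without exposed replicate 2 or 3 or control replicate 3, 0 members were nominally higher. Sftpa1 at 7583, 8842 and 9249 against 7422, 5184 and 5690.5 CPM (0.49, 95% interval -0.16 to 1.13) and the aspartic protease gene Napsa at 1035, 1044 and 1098 against 963, 637 and 692 CPM (0.47, 95% interval -0.18 to 1.12) also separated the groups. Sftpd was at 628, 739.9 and 1072 against 819.5, 409 and 496 CPM. Lyz2, a lysozyme gene that macrophages express too, was at 32983, 36389 and 26282 against 34116, 18083 and 20367 CPM. Both overlapped between the groups, and the log2 fold change of Sftpc was 0.29 (95% interval -0.38 to 0.96). Alveolar type I genes had a median of -0.016 (-0.23 to 0.21 without single libraries) and 0 of 12 nominally higher or lower.

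Airway secretory genes were spread widely. Bpifa1, an antimicrobial protein of the upper airway, was at 149, 0.121 and 466 CPM in exposed and 6.12, 2.98 and 1.97 CPM in control libraries, Scgb3a1 at 9.95, 0 and 22.1 against 0, 0.271 and 0.422 CPM and the goblet cell gene Clca1 at 2.64, 0 and 40.1 against 0, 0.949 and 2.25 CPM. All 3 were at or near 0 in exposed replicate 2 and highest in replicate 3, the order of the airway list means given above. Scgb1a1 did not follow that order, being highest in replicate 1 among the exposed libraries and below every control in replicate 3. The summed CPM of the club and goblet list, unlike its mean of logs, was 10007 in exposed replicate 3 against 11053, 14813 and 19085 in the controls. Pigr, which carries IgA across the epithelium, was steadier, at 723, 751 and 786 against 560.5, 492 and 557 CPM, all exposed libraries above all controls (0.49, 95% interval 0.076 to 0.90). Aldh1a1, a club cell aldehyde dehydrogenase, was lower in every exposed library, at 265, 295 and 199 against 311, 359 and 446 CPM (-0.56, 95% interval -1.01 to -0.11). The log2 fold change of Scgb1a1 was -0.87 (95% interval -1.86 to 0.13). Of the ciliated cell genes 0 of 13 were nominally higher or lower.

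Detoxification genes that smoke is known to induce were not higher by the test at this dose and day. Cyp1a1, the inducible target of the aryl hydrocarbon receptor, was at 16.6, 8.93 and 5.87 CPM in exposed and 13.0, 20.9 and 2.67 CPM in control libraries, a log2 fold change of -0.23 (95% interval -1.75 to 1.29), and the groups overlapped throughout. None of the 6 genes tested in its list had a log2 fold change above 0 or was nominally higher or lower. The count depends on single libraries. 3 of 6 were above 0 without exposed replicate 3 and the median moved from -0.19 to 0.0048, and 2 were above 0 without control replicate 2. The interval for Cyp1a1 is wide, and a change of moderate size in either direction was not detectable with these libraries. Among 31 NRF2 targets the median was -0.021, 0 were nominally higher and 1 nominally lower, but without control replicate 1 the median was 0.20, with 21 of 31 above 0 and 2 nominally higher. The other single libraries gave medians down to -0.15, without control replicate 2. Nqo1, a quinone reductase of both pathways, was at 36.8, 41.8 and 36.1 against 32.1, 48.6 and 47.1 CPM (-0.16, 95% interval -0.61 to 0.29), and heme oxygenase, Hmox1, at 47.3, 64.1 and 96.8 against 95.7, 43.6 and 59.4 CPM (0.070, 95% interval -0.63 to 0.77). Gstp1, a glutathione transferase, was nominally lower, at 207, 187 and 132 against 407, 322 and 239.7 CPM (-0.88, 95% interval -1.53 to -0.23), and Gsta3 was at 5.28, 0.845 and 1.53 against 4.46, 5.69 and 6.33 CPM (-1.16).

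Heat shock genes (median -0.062, 0 of 28 nominally higher or lower) and p53 targets (median 0.040, 0 of 21) lay near all genes. Fatty acid and cholesterol synthesis genes had a median of -0.10 and 0 of 26 nominally higher or lower. Matrix and fibroblast genes had a median of 0.11, smooth muscle genes -0.21 and endothelial genes -0.16. Of the endothelial genes Tie1, an endothelial receptor kinase, was nominally lower, at 126, 142 and 134 against 163, 237 and 184 CPM (-0.54). The endothelial median was 0.016 without exposed replicate 3, with 2 members nominally higher and 0 lower, and without control replicate 3 the smooth muscle median was 0.14. The medians without single libraries ran from -0.092 to 0.12 for heat shock genes, -0.10 to 0.12 for p53 targets and -0.16 to 0.018 for fatty acid and cholesterol synthesis genes.

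The next lower dose of the same day was compared to see what set 20 mg/mL apart from it. Between 20 and 10 mg/mL, which share no library, 0 of 11421 genes (0%) passed the edgeR test, and 720 (6.30%) had an unadjusted p under 0.05. That number was 1639 without replicate 3 of 10 mg/mL, and 466 without its replicate 1. DESeq2 called 4 genes, Mtrr, Scd1, Duox1 and Sept6. The genes below were chosen for their 20 mg/mL values, and the same 20 mg/mL libraries enter both comparisons, so the values are given as a description. At 10 mg/mL RT1-Db1 stood at 539.9, 392 and 426 CPM, below all 20 mg/mL libraries (1.01, 95% interval 0.48 to 1.53), and Tmem176b at 134, 109.8 and 185 CPM (0.99, 95% interval 0.50 to 1.47). Mki67 was at 11.2, 15.3 and 17.8 CPM at 10 mg/mL (1.33, 95% interval 0.69 to 1.96). Trem2 was at 7.78, 7.33 and 3.79 CPM (1.66, 95% interval 0.67 to 2.65), and both were below the 20 mg/mL group on average. The 10 mg/mL mean of Mki67 was also below the control mean of the day, and Trem2 at 20 mg/mL was highest in replicate 3. For Cebpd, the 10 mg/mL libraries were at 119, 84.8 and 125 CPM and the 5 mg/mL libraries at 313, 139 and 234 CPM, and the difference between 20 and 10 mg/mL was -0.53 (95% interval -1.09 to 0.043). Nfkbia was at 855, 962 and 977 CPM at 10 mg/mL and 2313, 823 and 1114 CPM at 5 mg/mL, and Zbtb16 at 18.5, 27.7 and 53.3 and 0.491, 3.00 and 49.3 CPM. Against the control libraries, which all doses of the day share, the log2 fold changes at 5, 10 and 20 mg/mL were -0.090, -1.15 and -1.68 for Cebpd, -0.34, -0.95 and -1.16 for Nfkbia and 1.70, 2.65 and 3.60 for Zbtb16. The medians of the macrophage identity list at 5, 10 and 20 mg/mL were 0.22, 0.18 and 0.48, and those of MHC class II genes -0.031, -0.17 and 0.56.

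At 12 days the same dose was measured in other lungs against their own controls. There too 0 of 11421 genes (0%) passed the edgeR test, with 421 (3.69%) at an unadjusted p under 0.05, a number that ran from 229 to 721 when single libraries were left out. DESeq2 called 4 genes and limma voom 2. For the difference between the days 0 genes (0%) passed, and 435 (3.81%) had an unadjusted p under 0.05, a number that ran from 323 to 662 when single libraries were left out, the latter without exposed replicate 1 of day 12. Among the 30 named genes with the smallest p at 6 days, 19 had the same sign at 12 days, 7 of them with an unadjusted p under 0.05 there. For 19 of the 30 the difference between days had an unadjusted p under 0.05, and since the 30 were chosen on their 6-day values, these counts are a description. Zbtb16 was higher at both days. At 12 days it stood at 96.0, 34.1 and 69.1 CPM in exposed and 6.06, 3.43 and 4.72 CPM in control libraries, a log2 fold change of 3.81 (95% interval 1.81 to 5.81), and the test of the difference between days gave an unadjusted edgeR p of 0.872. Fkbp5 was at 138, 44.5 and 101 against 31.7, 26.5 and 22.5 CPM at 12 days (1.81, 95% interval 0.99 to 2.63), and Spidr at 22.6, 32.6 and 32.6 against 58.6, 53.3 and 107 CPM (-1.32, 95% interval -2.02 to -0.61).

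Cebpd and Nfkbia had log2 fold changes under 0 at 12 days too, with fitted values smaller in size than at 6 days. Cebpd was at 142, 106 and 135 against 129, 255 and 221 CPM, with overlapping groups (-0.66, 95% interval -1.23 to -0.094). Its difference between the days was 1.02 (95% interval 0.22 to 1.82) and did not pass adjustment. Nfkbia was at 1067, 1062 and 1119 against 1628, 1572 and 1964 CPM (-0.67, 95% interval -1.25 to -0.084). For Nfkbia the difference was 0.49, with an interval that spans both signs (95% interval -0.33 to 1.32). For other genes the 12-day groups were close to each other. RT1-Db1 was at 505, 759 and 456 against 787, 637 and 433 CPM (-0.11, 95% interval -0.63 to 0.41) and Epha4 at 37.4, 56.0 and 43.1 against 39.4, 39.0 and 49.0 CPM (0.098, 95% interval -0.34 to 0.54), with differences between the days of -1.19 (95% interval -1.93 to -0.45) and 1.12 (95% interval 0.50 to 1.74). Neither difference passed adjustment, with an adjusted edgeR p of 1.00 for both. The list medians at 12 days were -0.11 for MHC class II, 0.11 for macrophage identity, 0.085 for lipid-laden macrophage and 0.21 for cell cycle genes.

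**Figure D5:**
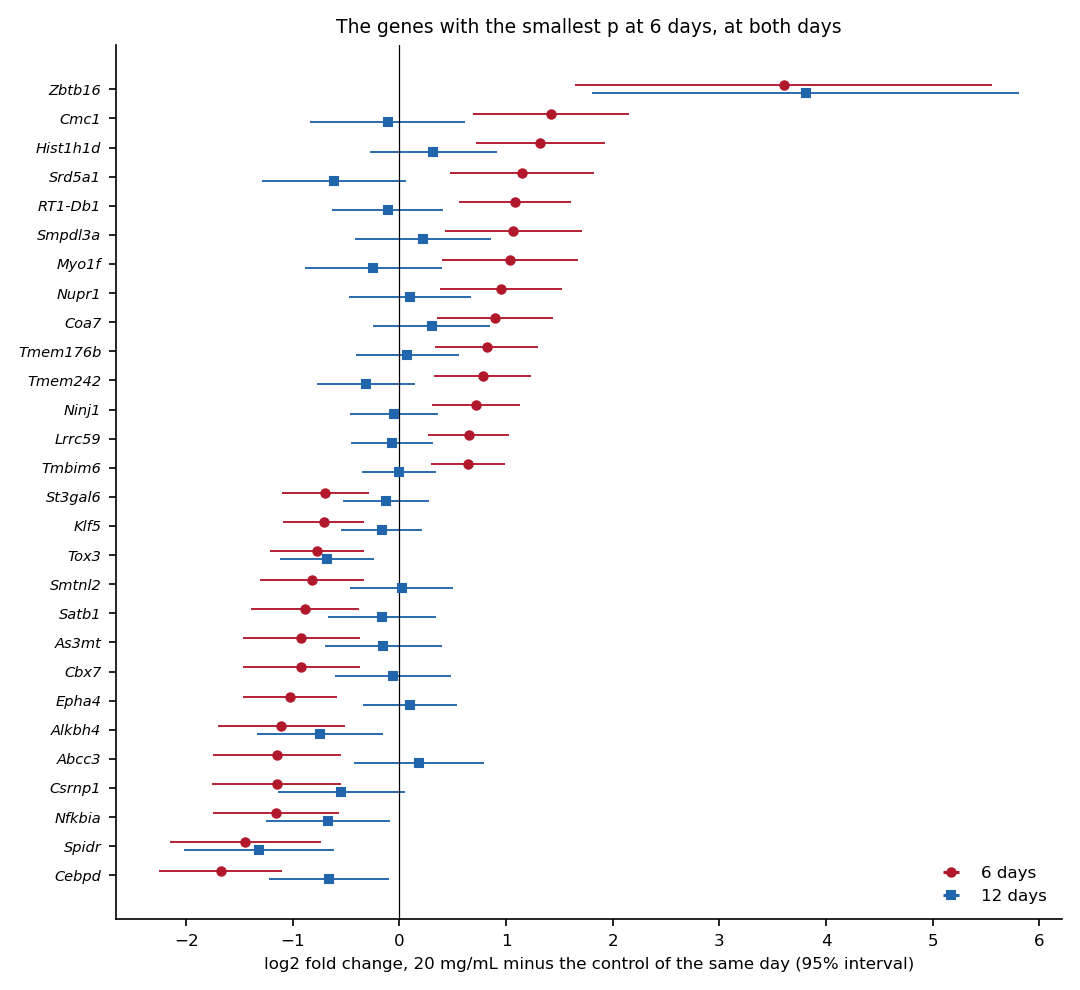
Log2 fold change of 20 mg/mL against the control of the same day (horizontal axis) with its 95% interval at 6 days (red circles) and 12 days (blue squares) for 28 of the 30 named genes with the smallest p at 6 days; Trat1 and Prkd1, with a group at 0 reads, are not drawn. Zbtb16 (3.60 and 3.81) and Spidr (-1.45 and -1.32) have values on the same side of 0 at both days, while RT1-Db1 (1.08 and -0.11) and Epha4 (-1.03 and 0.10) are near 0 at 12 days.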

How the data were processed

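RNA from rat lung was extracted with Trizol, and 500 ng of total RNA went into libraries of a Lexogen QuantSeq kit, per the labels' protocols. Each library has 1 file, in which the authors deposited unnormalized whole-number read counts by gene symbol. Per the submitters' processing notes, Bowtie2, bedtools and the build rn6 were used. The sources used here do not give their roles and versions, the annotation, the strand setting or any batch.

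Each file had 17048 rows and 16881 distinct symbols. For a repeated symbol the row with the highest total was kept, which left out 167 rows with 0.772% of the counts. Over the 24 libraries, totals ran from 4758014 to 10989792. Counts were filtered by filterByExpr, scaled by TMM and fitted by the edgeR 4.0.16 quasi-likelihood method in R 4.3.3, with 8 group means over all 24 libraries, 16 residual degrees of freedom and a common biological coefficient of variation of 0.335. Tests were two-sided, with Benjamini-Hochberg adjustment over 11421 genes and a threshold of 0.05. Intervals are 95% intervals of that fit, and CPM are scaled by TMM. The fit was also run on counts simulated with its own spread. Those counts held no differences in tissue content, so that run does not check the test for such differences.

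The gene lists, the comparison and the rule for named genes were chosen with earlier results of these data known. The rule named, among genes whose groups did not overlap and whose higher group reached 1 CPM, the 15 smallest p each way and the 5 largest folds each way with an unadjusted p under 0.05. It also named 2 members of each list and Cyp1a1, Nqo1, Hmox1, Scgb1a1, Sftpc, Il1b, Tnf, Ccl2, Cxcl1 and Mmp12. Of these, 104 genes were used, and the others are not reported here. A further 47 genes were chosen after their values were seen, mostly list members with an unadjusted p under 0.05. Promoters came from RefSeq (GRCr8) and 84 of the 104 genes matched. Since these coordinates and the files' build differ, no position was taken from one to the other. Alternatives were RLE and upper-quartile scaling, no filter, DESeq2 1.42.0, limma 3.58.1 voom, smaller fits, a replicate block, a covariate, other handling of repeated symbols, a fit without ribosomal RNA and globin genes, and leaving out each library.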

Additional observations from a re-analysis of the deposited data

How the results depend on the processing

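For 20 mg/mL against control at 6 days, 0 genes were called in the edgeR fit. RLE scaling, no filter and a covariate for genes detected each called 1 (Cebpd, adjusted p 0.0474, 0.0266 and 0.0108), limma voom 2 (Cebpd 0.00159, Zbtb16 0.00543) and DESeq2 3 (Cebpd 3.03e-05, Epha4 0.0342, Hist1h1d 0.0372). Leaving out 1 library at a time called 0 to 0 genes. At an unadjusted p under 0.05 there were 464 genes, 1288 under voom, 724 with the covariate and 326 to 629 without single libraries. DESeq2 called 4 genes for 20 against 10 mg/mL, and 4 for 20 mg/mL against control at 12 days, where voom called 2 and a fit of those groups alone 1. Leaving out single libraries called 0 to 0 genes in each of these comparisons and in the difference between days.

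The labels give the groups the same replicate numbers but do not say that a number marks a shared animal, litter or day. Same-numbered exposed and control libraries correlated at 0.133, -0.105 and 0.242 in their deviations from the group means, and not every library correlated best with its own number, so the numbers were not taken to pair the libraries. With the number as a replicate block, 1 gene was called (Cebpd, adjusted p 0.0288) and 593 had an unadjusted p under 0.05.

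Among named genes the sign of the log2 fold change turned for Cxcl1 (-0.093), Cxcl13 (-0.69) and RT1-Ba (-0.081) under voom. Some list medians turned sign under voom as well, among them ciliated cell genes (0.26 to -0.89) and club and goblet cell genes (0.39 to -0.36). Leaving out single libraries gave ranges that crossed or reached 0, -0.13 to 1.96 for Fcgr2b, -0.011 to 1.28 for Apoe, -0.40 to 4.62 for Mcpt1, 0 to 9.57 for Myh6, 0 to 6.83 for Csrp3, -1.84 to 0.11 for Ahsp, -0.22 to 1.40 for Plin1, -0.24 to 0.76 for Cxcl1, -0.0171 to 0.64 for RT1-Ba, -0.10 to 0.92 for Tnf, -0.72 to 0.40 for Cyp1a1, -1.22 to 0.19 for Lgals7 and -0.25 to 0.43 for Hmox1. The causes were not tested. Depth limits what can be said of genes with few reads.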

Other observations

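Further genes, mostly of cells outside the alveolar epithelium, are given here as values. Krt15, a keratin of basal cells, was at 15.6, 4.83 and 29.1 CPM in the exposed lungs at 6 days and 2.42, 3.12 and 10.1 CPM in the controls, with exposed replicate 2 within the controls, a log2 fold change of 1.66 (95% interval -0.13 to 3.45). At 12 days it stood at 6.93, 108 and 5.25 against 3.03, 1.63 and 0.694 CPM (4.51, 95% interval 2.45 to 6.58). Cxcl13, an attractant of B cells, was at 2.84, 0 and 11.1 against 1.02, 1.36 and 1.13 CPM at 6 days. The adipocyte genes Cfd, at 17.5, 35.4 and 41.6 against 24.0, 15.0 and 17.5 CPM, and Plin1, at 1.02, 2.29 and 0.128 against 0.893, 0.271 and 0.704 CPM, overlapped between the groups. The red blood cell gene Ahsp, at 18.5, 59.3 and 4.98 against 72.2, 38.4 and 12.8 CPM, overlapped as well, as did Lgals7, a squamous epithelial gene, at 3.25, 0.845 and 0.638 against 1.66, 1.90 and 1.69 CPM. Cdh5, the endothelial cadherin, was at 160.0, 133 and 61.1 against 49.5, 75.6 and 66.6 CPM, with exposed replicates 1 and 2 above all controls and replicate 3 within them (0.88, 95% interval -0.0014 to 1.77).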
